A study of Homo sapiens with 5 samples.

Results

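The GADD45 and BTG/TOB genes encode small stress-responsive proteins that hold back cell division, and 8 of them were followed here: GADD45A, GADD45B, GADD45G, BTG1, BTG2, BTG3, TOB1 and TOB2. They are the rows of the count table with these gene symbols, and all 8 were found among its 26485 genes. RNA-seq was measured in wild-type RPE1 cells, a cell line derived from human retinal pigment epithelium. The cells received for 18 h either DMSO, the solvent of the drug (2 libraries), doxorubicin at 0.2 μM (2 libraries) or doxorubicin at 0.34 μM (1 library). Doxorubicin is an anticancer drug that intercalates into DNA and poisons topoisomerase II. The sample titles give these doses, while the treatment text of the labels writes them as 200 and 340 μM. For each gene, the 3 doxorubicin libraries, pooled over the doses, were compared with the 2 DMSO libraries.

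GADD45 proteins are induced by DNA damage and other stresses. They bind the kinase MAP3K4, which feeds the p38 and JNK pathways, and also the replication clamp PCNA, the CDK inhibitor p21 and the CDK1-cyclin B1 complex that drives entry into mitosis. BTG and TOB proteins are adaptors that share a BTG domain. Through it they bind the deadenylases CNOT7 and CNOT8 of the CCR4-NOT complex, which shortens the poly-A tails of mRNAs, and they slow progress from G1 to S phase when overproduced.

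BTG2 was the only member that passed the threshold, an adjusted p of 0.01 in edgeR's quasi-likelihood test over all genes. Its mRNA rose 11.5-fold after doxorubicin. GADD45A was 2.59-fold higher and lay outside the threshold, with an edgeR adjusted p of 0.0403. With DESeq2, the tool that the study used, it passed (adjusted p = 0.000417). GADD45B, BTG1 and TOB1 had smaller positive fold changes, BTG3 and TOB2 had values near 0 on the log2 scale, and GADD45G had no read in any library. Of the 14187 genes tested, 4.02% passed the threshold in either direction and 1.29% passed it as higher, against 1 of the 7 members tested. With 7 genes these shares allow no statement about the group. In bulk RNA, less RNA of a gene in each cell and fewer cells that express it, such as cells in a given stage of the cycle, cannot be told apart.

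To show where these genes start, the bases just upstream of the annotated start are printed for 4 of them: BTG2, its close paralog BTG1, which did not pass the threshold, and the GADD45B and GADD45G genes, of which one was abundant and the other had no reads. The sequences are from RefSeq on GRCh38, the build to which the authors mapped their reads, and are read 5′ to 3′ on the strand of the gene. They cover the 250 bases before the start, at chr1:203305269-203305518 (plus strand) for BTG2, chr12:92145847-92146096 (minus strand) for BTG1, chr19:2475877-2476126 (plus strand) for GADD45B and chr9:89604762-89605011 (plus strand) for GADD45G. Capitals mark the CCAAT box, read as CCAAT on either strand.
BTG2: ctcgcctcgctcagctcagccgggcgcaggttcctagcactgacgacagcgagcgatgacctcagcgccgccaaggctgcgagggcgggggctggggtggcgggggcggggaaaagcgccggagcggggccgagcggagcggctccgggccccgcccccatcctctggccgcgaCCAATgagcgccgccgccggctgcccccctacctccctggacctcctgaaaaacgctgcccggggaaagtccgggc
BTG1: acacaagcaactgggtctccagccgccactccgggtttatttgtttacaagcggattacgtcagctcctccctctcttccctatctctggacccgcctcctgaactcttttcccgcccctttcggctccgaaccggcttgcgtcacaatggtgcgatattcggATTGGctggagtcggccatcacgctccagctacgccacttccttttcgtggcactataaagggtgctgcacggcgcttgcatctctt
GADD45B: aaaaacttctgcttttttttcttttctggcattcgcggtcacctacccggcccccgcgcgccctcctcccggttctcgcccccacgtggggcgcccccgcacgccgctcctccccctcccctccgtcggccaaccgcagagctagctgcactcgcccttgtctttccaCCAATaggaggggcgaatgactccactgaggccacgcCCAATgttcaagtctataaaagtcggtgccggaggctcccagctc
GADD45G: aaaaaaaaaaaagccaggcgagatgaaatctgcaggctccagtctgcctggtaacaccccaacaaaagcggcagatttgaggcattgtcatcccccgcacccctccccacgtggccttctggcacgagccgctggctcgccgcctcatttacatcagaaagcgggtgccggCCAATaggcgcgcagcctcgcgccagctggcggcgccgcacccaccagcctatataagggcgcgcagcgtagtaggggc

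GADD45A had no listed promoter, so it was not searched for any motif. In the window from 250 bases before to 50 bases after the start, a CCAAT box was found in 34.6% of 35116 RefSeq promoters. It began 76 bases before the start of BTG2 (position -76), at -87 on the other strand in BTG1, at -82 and -45 in GADD45B and at -79 in GADD45G. BTG3 and TOB2 had none, and TOB1 had 1 in only 1 of its 2 listed promoters. The letters TATAAA, found in 11.5% of promoters, were present at -33 in BTG1 and at -31 in GADD45B. BTG1 was also the only one of the listed members with the FOXO motif TGTTTAC, at -209, which 3.42% of promoters held. This is 1 match among several motifs searched. The GC box GGGCGG, in 45.0% of promoters, was found in BTG1, BTG2, BTG3, TOB2 and 1 of the TOB1 promoters, but not in GADD45B or GADD45G. The CRE motif TGACGTCA and the AP-1 motif TGANTCA, in 1.85% and 7.71% of promoters, were found in no listed member. A match or its absence describes these letters in this window and says nothing about the binding of a factor. The GC content of the BTG2 window was 73.3% and that of BTG1 was 56.0%, against a median of 58.7% over all promoters.

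The genes lie on 7 chromosomes. In GRCh38, GADD45A is at chromosome 1, 67685201 to 67688334, GADD45B at chromosome 19, 2476127 to 2478257, and GADD45G at chromosome 9, 89605012 to 89606555. BTG1 is at chromosome 12, 92140278 to 92145846, BTG2 at chromosome 1, 203305519 to 203309602, and BTG3 at chromosome 21, 17593653 to 17612901. TOB1 is at chromosome 17, 50862223 to 50867978, and TOB2 at chromosome 22, 41433494 to 41446801. The annotated span of BTG3 lies inside that of CXADR, whose span was also counted, and TOB1 shares 1300 bases with TOB1-AS1, which had between 5 and 16 counts. BTG1 overlaps LINC01619 and GADD45G overlaps LOC105376139. GADD45A, GADD45B, BTG2 and TOB2 overlap no other annotated gene. The strand setting of the counting was not stated, so reads of overlapping genes may be mixed in BTG3, TOB1 and BTG1.

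The counts on genes summed to between 23773061 and 36725345 per library. Levels are given as CPM, the counts scaled to the same depth by edgeR's TMM method, and values after ± are the SD. Of the retinal pigment epithelium markers, RPE65, RLBP1, TYR and TYRP1 had at most 8 counts in any library, while MITF had 743 to 1503 and OTX2 601 to 887. BEST1, with 14 to 142 counts, and PMEL, with 5 to 46, were higher in each doxorubicin library than in DMSO, and SERPINF1 had 4 to 29 counts. The sum of all 9 such markers was 54.9 to 88.0 CPM in DMSO and 71.8 to 81.0 in doxorubicin. The summed level of 4 blood cell markers was 0.191 to 0.274 CPM in DMSO and 1.01 to 2.20 in doxorubicin, with CD3E and HBB at 0 in every library and PTPRC at 5 to 72 counts. That of 4 epithelial markers was 583 to 696 CPM in DMSO and 970 to 1176 in doxorubicin. Nearly all of it came from KRT8 and KRT18, while CDH1 had 0 to 4 counts and EPCAM 0 or 1. That of 2 endothelial markers was 0.191 to 2.43 CPM in DMSO and 0.425 to 3.33 in doxorubicin, with CDH5 at 56 and 69 counts in the libraries numbered 2 and at 2 to 5 in the others. That of 3 mesenchymal markers was 14950 to 25275 CPM in DMSO and 16264 to 25075 in doxorubicin, and of these FN1 and COL1A1 were lower in both libraries numbered 2 than in the other 3. The part of these markers in the results below was not tested.

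**Figure D1:**
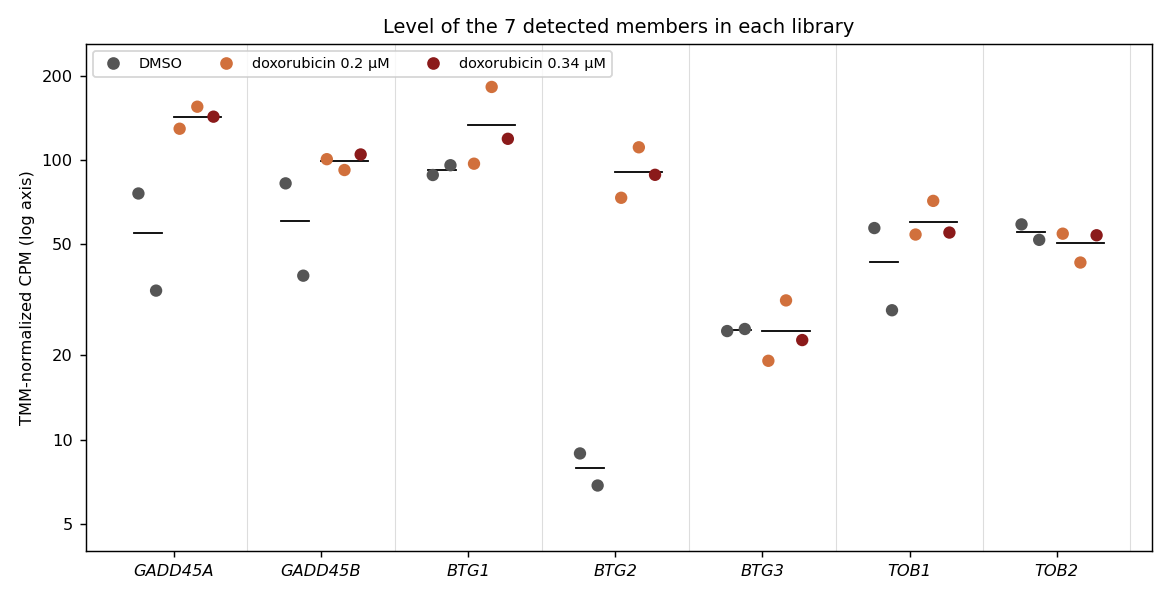
Level of the 7 detected members in each of the 5 libraries, as TMM-normalized CPM on a log axis. Each point is 1 library, in the order DMSO replicates 1 and 2, doxorubicin 0.2 μM replicates 1 and 2 and doxorubicin 0.34 μM, and the lines are the means of the 2 DMSO and the 3 doxorubicin libraries. BTG2 moves from 6.85 and 8.93 CPM in DMSO to between 73.3 and 111, while GADD45A, GADD45B and TOB1 show a wide gap between the DMSO libraries.

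GADD45A, the family member best known from growth arrest after DNA damage, had 75.9 and 34.1 CPM in DMSO replicates 1 and 2. It had 129 and 155 CPM in the 0.2 μM libraries and 143 in the 0.34 μM library. All 3 doxorubicin libraries lay above both DMSO libraries and within a narrow range, whereas the DMSO libraries were 2.23-fold apart. The means were 55.0 ± 29.6 CPM (n = 2) and 142 ± 12.9 (n = 3). The log2 fold change was 1.37 (SE, the standard error, 0.33, 95% interval 0.58 to 2.16), with an edgeR adjusted p of 0.0403. With DESeq2, which the study used on the pooled doses at an adjusted p of 0.01, GADD45A passed (adjusted p = 0.000417). In the same direction, 6.42% of the genes that DESeq2 tested passed. At a threshold of 0.05 in edgeR, 2 members passed, BTG2 and GADD45A, against 13.6% of all genes.

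The size of the GADD45A difference depended on which DMSO library was used. Without DMSO replicate 1, which had the higher level, the log2 fold change was 2.05. Without DMSO replicate 2 it was 0.89. Each of these fits keeps 1 DMSO library and cannot measure the spread of the controls, so only the sizes are given. Leaving out a doxorubicin library kept the log2 fold change between 1.31 and 1.45. The edgeR adjusted p-values were then 0.0745, 0.0924 and 0.0975, so that GADD45A was outside a threshold of 0.05 too. The absolute log2 difference of GADD45A between the DMSO libraries was 1.15, at percentile 90.9 of all genes tested, for which the median was 0.365.

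GADD45B, which is also known as a TGF-β and NF-κB responsive gene, followed a like course with a smaller difference. It had 82.5 and 38.6 CPM in DMSO, 101 and 92.1 CPM at 0.2 μM and 105 at 0.34 μM. The doxorubicin libraries again lay close together and above both DMSO libraries, of which replicate 1 came within reach of the lowest treated one. The log2 fold change was 0.71 (SE 0.31, 95% interval -0.021 to 1.44) and the edgeR adjusted p was 0.173. Leaving out DMSO replicate 1 gave 1.35 and leaving out replicate 2 gave 0.25.

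GADD45G had 0 counts in each of the 5 libraries. A count of 0 allows up to 3 counts, which is 0.0827 CPM in the deepest library and 0.125 CPM in the shallowest one, for counting error only. The family was therefore represented by GADD45A and GADD45B at this depth. No fold change can be given for GADD45G, and it was not among the genes tested.

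Among the BTG and TOB genes, BTG2, an early response gene also known as PC3 or TIS21, stood out. It had 8.93 and 6.85 CPM in DMSO, from 234 and 175 counts. It had 73.3 and 111 CPM at 0.2 μM, from 1895 and 2671 counts, and 88.5 CPM at 0.34 μM, from 3213 counts. The lowest doxorubicin library thus lay far above the highest DMSO library. The means were 7.89 ± 1.47 CPM (n = 2) and 91.0 ± 19.0 (n = 3), a log2 fold change of 3.53 (SE 0.26, 95% interval 2.91 to 4.14, edgeR adjusted p = 0.000912). As a fold, the interval runs from 7.51 to 17.7. In order of p, BTG2 was at rank 56 of the 14187 genes tested, and in order of the log2 fold change at rank 91 from the top.

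The rise of BTG2 was stable in size. When any one library was omitted the log2 fold change stayed between 3.33 and 3.72. The gene passed the threshold with each doxorubicin library left out in turn. Without a DMSO library the spread of the controls cannot be measured, so no call is given for those fits. The call was made in all 10 other settings, with DESeq2 (adjusted p = 6.87e-39) and limma voom (adjusted p = 0.00111) among them.

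BTG1, a paralog of BTG2 known from quiescent cells and as a target of FOXO factors, had a higher count than BTG2 in the control cells but differed less between the treatments. It had 88.4 and 95.8 CPM in DMSO, 97.0 and 183 CPM at 0.2 μM and 119 at 0.34 μM. The doxorubicin libraries lay above the DMSO libraries, the lowest by a small margin, and the highest one, replicate 2 of 0.2 μM, was 1.88-fold above replicate 1. The log2 fold change was 0.53 (SE 0.27, 95% interval -0.12 to 1.18, edgeR adjusted p = 0.242). Without replicate 2 of 0.2 μM it was 0.23.

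BTG3, also called ANA, which can bind the transcription factor E2F1, had 24.5 and 24.9 CPM in DMSO. It had 19.1 and 31.5 CPM at 0.2 μM and 22.7 at 0.34 μM, so that the doxorubicin libraries lay on both sides of the DMSO libraries. The log2 fold change was -0.014 (SE 0.23) with a 95% interval from -0.57 to 0.55, and its sign changed with the setting.

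TOB1, named as a transducer of ERBB2, had 57.1 and 29.0 CPM in DMSO, 54.1 and 71.4 CPM at 0.2 μM and 55.0 at 0.34 μM. The groups overlapped, since DMSO replicate 1 was above 2 of the doxorubicin libraries. Its log2 fold change was 0.48 (SE 0.30, edgeR adjusted p = 0.328), 1.04 when DMSO replicate 1 was left out and 0.056 when replicate 2 was. TOB2, its paralog, had 58.9 and 51.8 CPM in DMSO, 54.5 and 43.0 CPM at 0.2 μM and 53.8 at 0.34 μM. These groups overlapped as well, with a log2 fold change of -0.13 (SE 0.17, 95% interval -0.54 to 0.27, edgeR adjusted p = 0.644). BTG4, the member of the family known from oocytes, had at most 2 counts in a library.

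**Figure D2:**
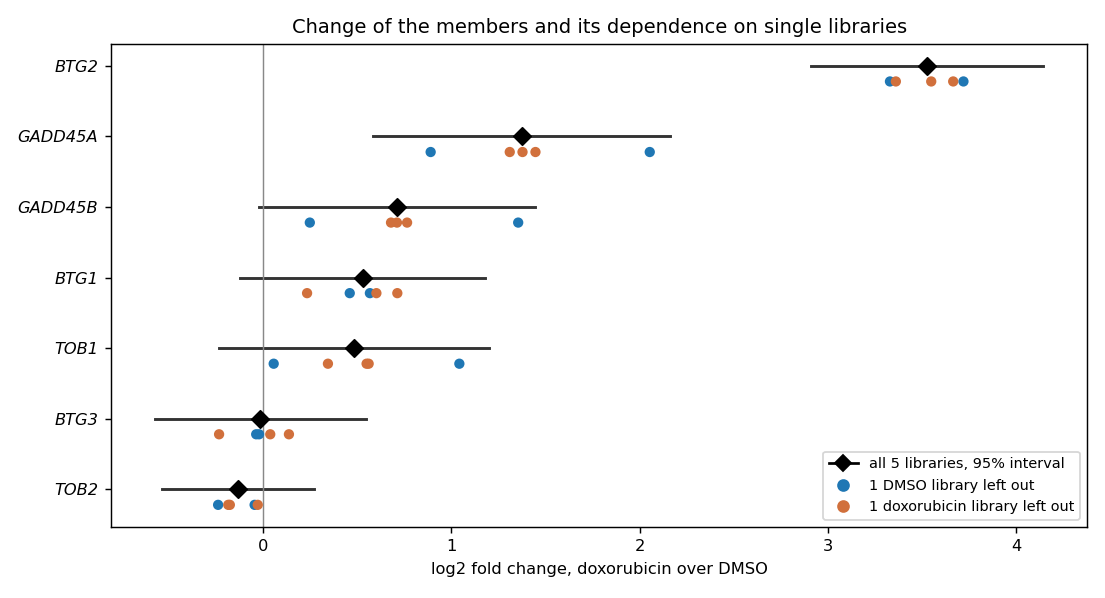
Log2 fold change of each detected member, doxorubicin over DMSO. Diamonds and lines are the fit to all 5 libraries with its 95% interval, and the points under each line are the fits without 1 DMSO library (blue) or without 1 doxorubicin library (orange). The interval of BTG2, 2.91 to 4.14, lies far from 0, and the blue points of GADD45A, from 0.89 to 2.05, are spread more widely than the orange ones.

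In all, 4 of the 7 tested members (GADD45A, GADD45B, BTG1 and BTG2) had all doxorubicin libraries above both DMSO libraries. The same was true of 24.3% of all genes tested, and the groups did not overlap in either direction in 47.7%. The median log2 fold change of the members was 0.53, against 0.013 over all genes tested. The members GADD45A, GADD45B and TOB1 shared the gap between the DMSO libraries, with replicate 1 higher 2.23-fold, 2.14-fold and 1.97-fold. In the 0.2 μM pair this gap was not repeated, since the ratio of replicate 2 to replicate 1 was 1.20 for GADD45A, 0.915 for GADD45B and 1.32 for TOB1.

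EGR1 and ZFP36, early response genes from the lists below, of which EGR1 was named after its values were seen, differed by library more than by treatment. EGR1 had 355 CPM in DMSO replicate 1 and 4.27 in replicate 2, 232 and 1.83 CPM at 0.2 μM, and 172 at 0.34 μM. ZFP36 had 60.2 and 11.3 CPM in DMSO, 28.0 and 9.02 at 0.2 μM and 18.5 at 0.34 μM. Both were thus low in the libraries numbered 2, and DMSO replicate 2 was the library in which GADD45A, GADD45B and TOB1 were lowest. The part of this difference in the members' values was not tested.

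To compare the levels of different genes, CPM values were divided by the length of the canonical transcript, which gives RPKM (reads per kilobase of transcript, scaled for depth). In DMSO the order was GADD45B with 44.2 ± 22.7 RPKM (n = 2), GADD45A with 40.7 ± 21.9, BTG1 with 19.9 ± 1.13, TOB1 with 19.2 ± 8.87, BTG3 with 17.5 ± 0.210, TOB2 with 12.8 ± 1.15 and BTG2 with 2.89 ± 0.537. GADD45B was above GADD45A in both DMSO libraries, by little beside the spread of each gene between libraries. TOB1 was above BTG1 and BTG3 in replicate 1 and below them in replicate 2, whereas both libraries of BTG1 were above those of BTG3. BTG2 was lowest in both DMSO libraries and at percentile 31.1 of 12794 tested genes with a length.

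After doxorubicin the order was GADD45A with 105 ± 9.52 RPKM (n = 3), GADD45B with 72.3 ± 4.69, BTG2 with 33.3 ± 6.96, BTG1 with 28.7 ± 9.59, TOB1 with 26.9 ± 4.35, BTG3 with 17.3 ± 4.50 and TOB2 with 11.6 ± 1.49. BTG2 had moved from the last to the third place and to percentile 85.7, although BTG2, BTG1 and TOB1 overlapped in their spread between libraries. Within each doxorubicin library BTG2 was above BTG1 and TOB1. The gap to BTG1 was small in replicate 2 of 0.2 μM, with 40.7 against 39.4 RPKM. The summed level of the 5 BTG and TOB genes was 78.8 and 65.8 RPKM in DMSO and 98.1, 144 and 111 RPKM in doxorubicin. BTG2 supplied 4.15% and 3.82% of it in DMSO and 27.4%, 28.2% and 29.2% in doxorubicin. The share was thus narrow within each treatment, although the sum varied. The GADD45 sum was 116 and 53.4 RPKM in DMSO and 169, 182 and 182 RPKM in doxorubicin, of which GADD45A made up 48.3% and 47.3% in DMSO and 56.6%, 63.1% and 58.1% in doxorubicin. The lengths are those of 1 transcript per gene in GENCODE and not of the isoforms used in these cells, so a difference in length would shift the order.

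**Figure D3:**
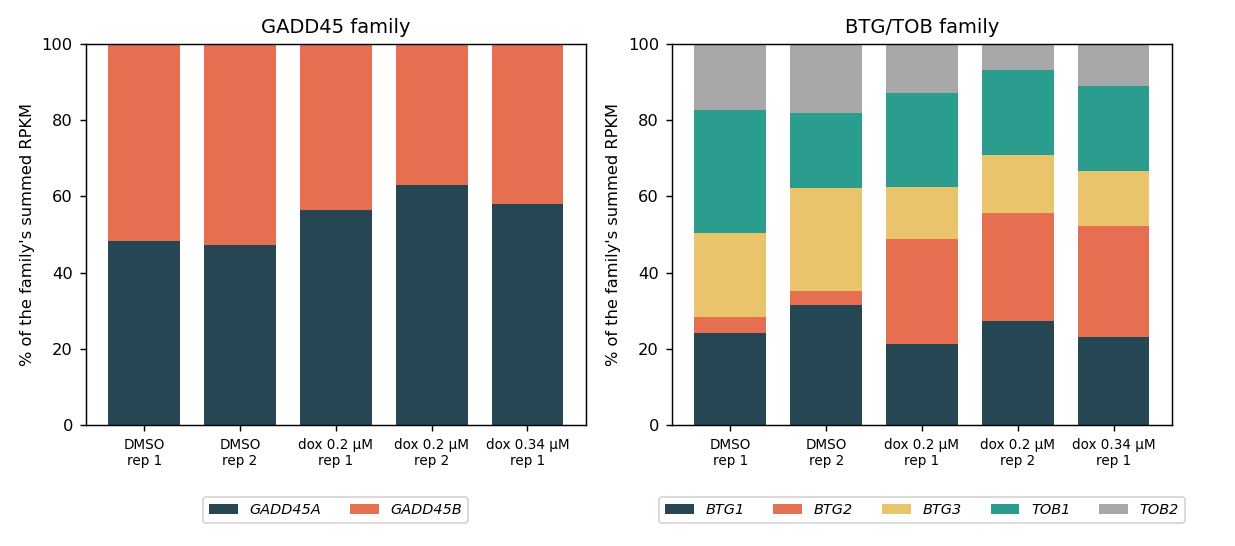
Share of each member in the summed RPKM of its family, in percent, for each library. In the BTG/TOB family the share of BTG2 is 3.82% and 4.15% in the DMSO libraries and between 27.4% and 29.2% in the doxorubicin libraries. In the GADD45 family, GADD45G had no reads and the share of GADD45A is 47.3% and 48.3% in DMSO and between 56.6% and 63.1% in doxorubicin.

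Ratios of paralogs within a library do not depend on how the libraries are scaled. The log2 ratio of GADD45A to GADD45B in CPM was -0.12 and -0.18 in DMSO, 0.36 and 0.75 at 0.2 μM and 0.45 at 0.34 μM. The 2 genes thus kept nearly the same ratio in DMSO libraries whose levels were over 2-fold apart, and the ratio was higher in each doxorubicin library. The mean change of the log2 ratio was 0.67. For BTG2 to BTG1 the log2 ratio was -3.30 and -3.79 in DMSO and -0.40, -0.72 and -0.43 in doxorubicin, a mean change of 3.03. For BTG2 to BTG3 the change was 3.55 and for BTG1 to BTG3 0.52. For TOB1 to TOB2 it was 0.69, with -0.044 and -0.83 in DMSO and -0.010, 0.73 and 0.032 in doxorubicin, so that the groups nearly touched. The TOB1 to TOB2 change was 0.29 without DMSO replicate 2, 0.45 without replicate 2 of 0.2 μM and 1.09 without DMSO replicate 1. In each of these 5 pairs the groups did not overlap, and the exact permutation test (two-sided) gave p = 0.1, also after adjustment over the pairs. This is the smallest p that 2 against 3 libraries allow, so the design cannot reach 0.05. The 3 pairs of BTG genes share their members and are not separate results. Among single genes tested, the groups did not overlap in 47.7%, and the share among gene pairs was not computed. The pair of GADD45A and GADD45G was not tested, since GADD45G had no reads.

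**Figure D4:**
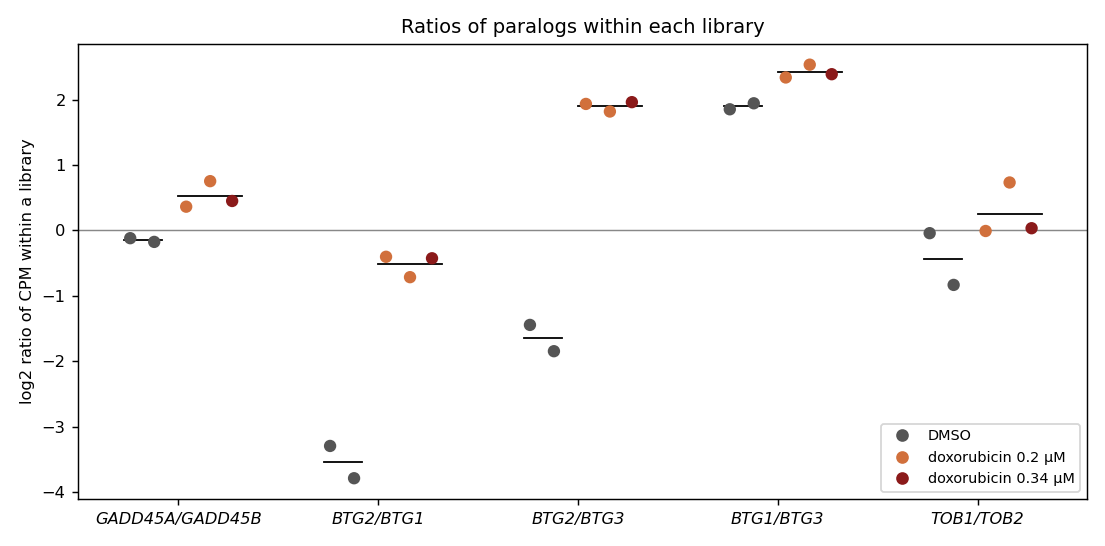
Log2 ratio of the CPM of 2 paralogs within each library, with the mean of the DMSO and of the doxorubicin libraries as lines. The ratios of BTG2 to BTG1 and to BTG3 move furthest, by 3.03 and 3.55, and the TOB1 to TOB2 ratio has libraries of both groups near 0.

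Next, it was asked whether the members differed between the doses. In a fit of 3 conditions, the log2 fold change of BTG2 from DMSO was 3.54 (SE 0.31) at 0.2 μM and 3.49 (SE 0.34) at 0.34 μM. The difference of the doses was -0.058 on the log2 scale, with a 95% interval from -0.86 to 0.75. For GADD45A the changes were 1.37 and 1.38 and the difference 0.0066, with an interval from -1.06 to 1.08. The differences of the other members lay between -0.23 for BTG1 and 0.14 for TOB2. None of the 14187 genes passed the threshold between the doses (0%) in edgeR, and 22 had an unadjusted p under 0.05. The 0.34 μM library has no replicate, so its spread is taken from the other groups, and the intervals are too wide to show that the doses acted alike. The genes with an unadjusted p under 0.05 were also far fewer than a share of 0.05 of those tested. The contrast was thus conservative, and its lack of calls says little about the doses.

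The genes nearest to GADD45A and BTG2 in their course over the 5 libraries were found by the Euclidean distance of log2 CPM, each gene centred on its DMSO mean. Nearest to GADD45A were TGFB2-AS1 (distance 0.17), MYOM1 (0.26) and CPA5 (0.27), all below 1 CPM in every library. Nearest to BTG2 were FETUB (0.33), ACER2 (0.42) and HMCN2 (0.57). ACER2, an alkaline ceramidase, had 2.52 and 1.76 CPM in DMSO and 15.6, 28.3 and 22.1 CPM in doxorubicin, and rose with a log2 fold change of 3.36 (SE 0.35, edgeR adjusted p = 0.00253). FETUB had no counts in DMSO and between 0.657 and 1.04 CPM in doxorubicin. HMCN2 had at most 0.0381 CPM in DMSO and 1.13 in doxorubicin. The fitted log2 fold changes of FETUB and HMCN2 were 7.46 and 5.27, where that of BTG2 was 3.53. The prior count of 2 shrinks the course of such low genes, so their distance depends on it.

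The partners of the members and their regulators were described from lists. Of 15 genes of the GADD45 partners and the p38 and JNK kinases, all were tested and 3 passed the threshold, 1 higher and 2 lower. Of all genes tested, 4.02% passed in either direction and 1.29% as higher. The median log2 fold change of the list was -0.089. CDKN1A, which encodes p21, had 294 and 258 CPM in DMSO and 2975, 2366 and 3358 CPM in doxorubicin. Its rise, with a log2 fold change of 3.39 (SE 0.23, edgeR adjusted p = 0.000768), stands beside 3.53 for BTG2. The genes of the mitotic kinase complex to which GADD45 proteins bind were lower. CCNB1 had 83.8 and 163 CPM in DMSO and 7.54, 11.5 and 6.39 in doxorubicin, and CDK1 had 61.6 and 84.8 CPM in DMSO and 11.2, 18.7 and 10.7 in doxorubicin. Their log2 fold changes were -3.87 (SE 0.36, edgeR adjusted p = 0.00181) and -2.44 (SE 0.29, edgeR adjusted p = 0.00402). PCNA had 86.0 and 166 CPM in DMSO and 185, 344 and 230 in doxorubicin, with an edgeR adjusted p of 0.117.

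Among the kinases, MAP2K3, which activates p38, had 29.7 and 41.4 CPM in DMSO and 70.5, 80.8 and 93.9 in doxorubicin. Its log2 fold change of 1.20 (SE 0.21) had an edgeR adjusted p of 0.0151 and passed with DESeq2 (adjusted p = 1.92e-05). The p38 gene MAPK11 had a log2 fold change of 0.91 (edgeR adjusted p = 0.0707) and MAP2K6, with under 1 CPM in each library, one of -1.35 (edgeR adjusted p = 0.156). Named after their values were seen, MAPK9, which encodes JNK2, had a log2 fold change of -0.56 (edgeR adjusted p = 0.0452) and passed with DESeq2 (adjusted p = 0.00714), and MAP3K4 had one of -0.50 (edgeR adjusted p = 0.111).

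Of the 24 genes for CCR4-NOT and deadenylation, 20 had a negative and 4 a positive log2 fold change, with a median of -0.25, where 48.9% of all genes tested were negative. None passed the threshold in edgeR. An unadjusted p under 0.05 was found for 7 of them, about the share of all genes (30.8%). As lower with DESeq2, 3 passed (CNOT9, CNOT3 and, outside the naming rule, CNOT1), against 7.77% of all genes. CNOT9, listed under its older symbol RQCD1, a scaffold subunit, had 74.2 and 91.1 CPM in DMSO and 40.3, 44.7 and 36.3 in doxorubicin. Its log2 fold change was -1.03 (SE 0.17, edgeR adjusted p = 0.0113), just outside the threshold. CNOT3 had a log2 fold change of -0.76 (edgeR adjusted p = 0.0480) and CNOT4 one of -0.76 (edgeR adjusted p = 0.126). The deadenylase CNOT7, which BTG and TOB proteins bind, had 134 and 137 CPM in DMSO and 94.0, 128 and 97.7 in doxorubicin (log2 fold change -0.34, SE 0.18, edgeR adjusted p = 0.241). The other one, CNOT8, had 43.6 and 43.8 CPM in DMSO and 46.9, 41.8 and 43.0 in doxorubicin, so that the groups overlapped.

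Of 7 other partners of BTG and TOB proteins none passed the threshold in edgeR, 2 had an unadjusted p under 0.05, against 30.8% of all genes, and SMAD1 passed with DESeq2. SMAD1, a mediator of BMP signals that TOB proteins restrain, had 24.8 and 19.5 CPM in DMSO and 12.4, 12.6 and 10.9 in doxorubicin (log2 fold change -0.89, SE 0.19, edgeR adjusted p = 0.0267). The methyltransferase PRMT1, a partner of BTG1 and BTG2, had a log2 fold change of -0.37 and CCND1, the cyclin D1 gene, one of 0.61, with adjusted p-values of 0.184 and 0.136 from edgeR. HOXB9, to which BTG2 can bind, had one of -0.86 with a standard error of 0.55.

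Of 16 upstream factors, 14 were tested, with a median log2 fold change of 0.041, and TP73 and WT1 were too low. BRCA1, which can act on the GADD45A promoter, was the only one past the threshold, which 4.02% of all genes tested passed. It fell from 52.2 and 70.3 CPM in DMSO to 10.7, 13.6 and 10.6 in doxorubicin (log2 fold change -2.40, SE 0.20, edgeR adjusted p = 0.00146). ATF3, a stress-induced factor, had 3.89 and 1.25 CPM in DMSO and 13.4, 15.3 and 12.8 in doxorubicin. Its log2 fold change of 2.42 (SE 0.47, edgeR adjusted p = 0.0200) passed the threshold with DESeq2. TP63, below 0.5 CPM in each library, had 1.46, FOXO1 0.61 and DDIT3 0.45, none of which passed. Without DMSO replicate 2 the log2 fold changes were 3.28 for CDKN1A, -3.33 for CCNB1, -2.21 for CDK1 and -2.19 for BRCA1. That fit cannot measure the spread of the controls, so no calls are given for it. With a doxorubicin library left out, CDKN1A, CCNB1 and BRCA1 passed each time, while CDK1 passed only without replicate 2 of 0.2 μM.

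**Figure D5:**
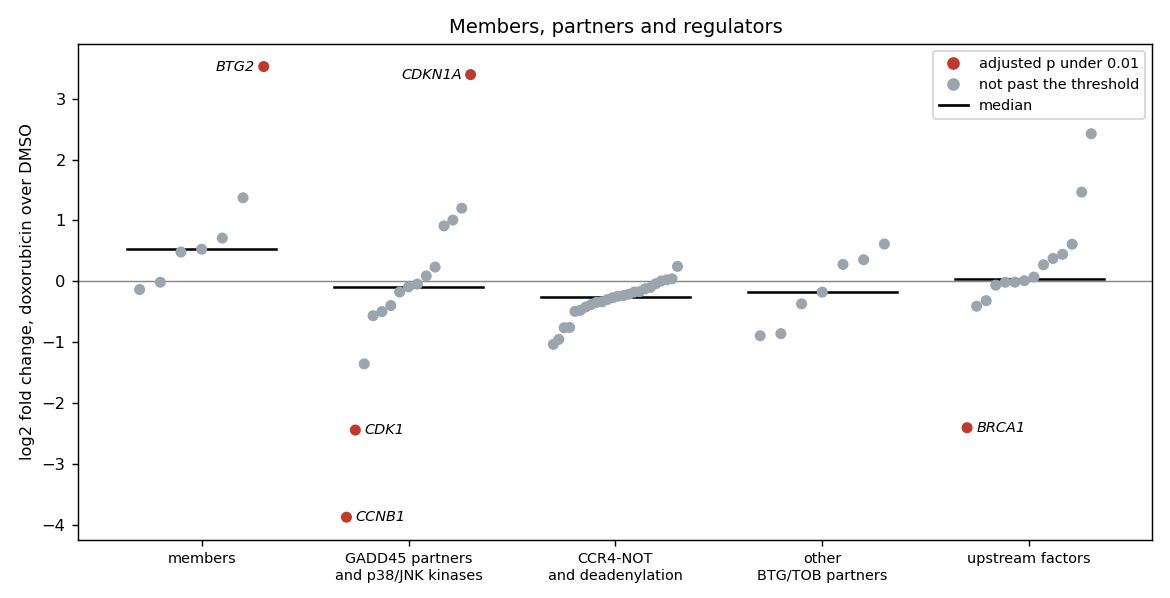
Log2 fold change of the tested members and of the genes in the 4 lists, doxorubicin over DMSO, sorted within each list, with the median as a line. Red points passed the adjusted p of 0.01 in edgeR, and among them BTG2 (3.53) and CDKN1A (3.39) are at the top and CCNB1 (-3.87) at the bottom, while all points of the CCR4-NOT list lie between -1.03 and 0.25.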

How the data were processed

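RNA was taken from RPE1 cells in 5 libraries, which the study describes as biological replicates of DMSO and doxorubicin. The authors sequenced poly-A RNA and deposited raw counts per gene symbol, obtained with STAR on hg38 and Rsubread featureCounts on iGenomes gene models. Tool versions, the strand setting and the handling of multi-mapping reads were not stated. A table of the authors' own comparison, with fold changes and p-values, was not used.

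Software was edgeR 4.0.16, limma 3.58.1 and DESeq2 1.42.0 under R 4.3.3. Genes were compared by the quasi-likelihood test of edgeR with TMM normalization and the default filter (minimum count 10, minimum total 15), with 3 doxorubicin against 2 DMSO libraries and Benjamini-Hochberg adjustment over 14187 genes. The SE of a log2 fold change was its size over the root of the F statistic, and 95% intervals use the degrees of freedom of the fit. A prior count of 2 entered log2 CPM. The scripts were tested on simulated data. The chi-square per degree of freedom between libraries of one condition was 117 for DMSO and 75.3 for 0.2 μM, so no library was a copy.

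Members and gene lists were chosen with earlier results of these data known. All members are named. In each list the called genes, up to 4 others with the largest absolute change and 6 fixed genes are named, of which 1 is not reported here. The lists came from general knowledge, and CNOT9 was matched by an older symbol. Transcript lengths came from GENCODE v44, matched by symbol for 20676 of 26485 genes. Positions and promoters came from RefSeq on GRCh38.p14, with promoters for 7 of the 8 members, all but GADD45A. Alternatives were the tool, normalization, filter, threshold, depth, dose grouping, replicate block and each library left out. In the replicate block the 0.34 μM library had a term of its own and so no weight in the fold changes.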

Additional observations from a re-analysis of the deposited data

How the results depend on the processing

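The rise of BTG2 kept its direction in all 15 alternative fits, with log2 fold changes between 3.33 and 3.72. Calls are not given for the 2 fits without a DMSO library, which cannot measure the spread of the controls. In the other fits BTG2 passed the threshold. GADD45A was positive in all 15 (0.89 to 2.05) and in those other fits passed with DESeq2 and with the replicate block. GADD45B, BTG1, BTG3, TOB1 and TOB2 passed in none. The sign of BTG3, at -0.014, turned to 0.028 with upper-quartile factors, 0.0068 with a minimum count of 50, 0.024 after thinning to the smallest library and 0.037 for 0.2 μM alone, and ranged from -0.23 to 0.14 with a library left out. The number of members called was 2 with DESeq2, 2 at a threshold of 0.05 and 0 to 2 with a library left out. The number of all genes called, 571, was 2028 with DESeq2, 1020 with no filter, 1927 at a threshold of 0.05, 171 for 0.2 μM and 89 for 0.34 μM against DMSO, and 49 to 215 with a library left out. The number of listed genes called, 4, was 11 with DESeq2, 7 with no filter, 10 at a threshold of 0.05, 1 for 0.34 μM, and 0 to 4 with a library left out. The cause of these changes was not tested. With the prior count of 0.5 the paralog ratios moved by less than the spread between libraries.

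The labels number a second library of DMSO and of 0.2 μM but do not say what the number shares. In the replicate block the 0.34 μM library was its own block and had no weight in the fold changes. This fit therefore compared 0.2 μM with DMSO within each replicate number. With it, 2 members (BTG2 and GADD45A, edgeR adjusted p = 0.000242), 1411 of all genes and 8 listed genes were called. The listed genes added were PCNA, MAP2K3, CNOT9 and ATF3 (edgeR adjusted p = 0.00114, 0.00119, 0.00469 and 3.62e-06). The block terms leave few degrees of freedom to estimate the spread, so these smaller p-values are not stronger evidence than those of the main fit. Across genes, the differences of replicate 2 from replicate 1 in DMSO and at 0.2 μM correlated with r = 0.528, where genes are not independent replicates. With 2 control libraries, changes of the size seen for GADD45B, BTG1 and TOB1 were within their intervals of 0.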
